A study of Mus musculus with 12 samples.

Results

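The genes described are the 7 genes of MHC class II presentation named by symbol, H2-Ab1, H2-Aa, H2-Eb1, Cd74, H2-DMa, H2-DMb1 and Ciita, and all 7 were among the 19049 genes of the deposited count table. They were followed across 12 RNA-seq libraries of mouse colonic stroma, sorted by flow cytometry as live cells negative for CD45, EPCAM, CD31 and TER119, which mark blood-derived, epithelial, endothelial and red-lineage cells. All mice were C57BL/6J. The normal adult group was 4 mice of 8 weeks, the P14 group was 4 mice at postnatal day 14 (2 weeks), and the tumour group was 4 mice whose colon tumours had been induced with AOM (azoxymethane, a mutagen) followed by the mucosal irritant DSS (dextran sodium sulfate), of 12, 13, 14 and 14 weeks. The tumour mice were thus older than the normal adults, and age, chemical treatment and tumour cannot be told apart in that comparison. Values are CPM (counts scaled to a common library size by library total and TMM factor), and n = 4 libraries per group throughout.

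MHC class II molecules display peptides from the endosomal pathway to CD4+ T cells. An alpha and a beta chain (H2-Aa with H2-Ab1 for I-A, and H2-Eb1 as the beta chain of I-E) assemble on the invariant chain Cd74, which blocks the groove until it is cut away, and the H2-DM dimer of H2-DMa and H2-DMb1 then exchanges the remaining fragment for peptide. Ciita, the class II transactivator, does not bind DNA itself but docks on factors at the X and Y boxes of class II promoters. Dendritic cells, macrophages and B cells carry class II constitutively, and epithelial, endothelial and fibroblastic cells can be induced to do so by interferon-gamma. C57BL/6J mice lack a working I-E alpha chain gene, so their H2-Eb1 transcript is not matched by surface I-E.

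In GENCODE M21 on GRCm38, 5 of the 7 genes lie in the H2 region of chromosome 17. They are H2-DMa (ENSMUSG00000037649, chr17:34119541-34139101, plus strand), H2-DMb1 (ENSMUSG00000079547, chr17:34153072-34160230, plus), H2-Ab1 (ENSMUSG00000073421, chr17:34257689-34269419, plus), H2-Aa (ENSMUSG00000036594, chr17:34282744-34287823, minus) and H2-Eb1 (ENSMUSG00000060586, chr17:34305867-34316674, plus). The others, Cd74 and Ciita, lie elsewhere. All 7 are protein-coding. H2-DMa overlaps Brd2 and Ciita overlaps Dexi on the opposite strand. H2-DMb1 has a near-identical copy, H2-DMb2. How reads were shared between such genes is not given in the sources used here, so the values of these 3 members are less certain.

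Promoter sequences from RefSeq (GRCm38.p6, 250 bases upstream of each start) were at hand for 4 of the 7 members, H2-Aa, H2-Eb1, H2-DMa and H2-DMb1. They were searched on both strands for the X box core AGNAAC, found in 42.3% of 32851 windows of that length, and the Y box core CCAAT, found in 33.8%. These cores can share their end letter C. The ordered pair, AGNAAC on the gene's strand followed by CCAAT on the other strand, which reads as ATTGG in the printed lines, with starts 25 to 40 bases apart, was in 0.365% of windows. Of 8 class II genes with a window, 5 held it: H2-DMb1, H2-Eb1, H2-Eb2, H2-Oa and H2-Ob. H2-Aa held it with the shorter core GCAAC, chosen after its sequence was seen, which lies inside AGNAAC where N is C and is in 29.9% of windows alone and in 0.362% as that pair. Neither H2-DMa window held either pair. The stretches from position -150 to -11 relative to the RefSeq start are shown for both chain genes with a window and for H2-Ob, a class II gene outside the 7 whose counts are given later. Capitals mark the X core, the Y core and any further CCAAT. H2-Aa is at chr17:34287834-34287973 on the minus strand, H2-Eb1 at chr17:34305717-34305856 and H2-Ob at chr17:34238755-34238894 on the plus strand.
H2-Aa: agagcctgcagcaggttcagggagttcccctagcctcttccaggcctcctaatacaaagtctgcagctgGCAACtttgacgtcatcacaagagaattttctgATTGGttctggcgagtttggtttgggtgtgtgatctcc
H2-Eb1: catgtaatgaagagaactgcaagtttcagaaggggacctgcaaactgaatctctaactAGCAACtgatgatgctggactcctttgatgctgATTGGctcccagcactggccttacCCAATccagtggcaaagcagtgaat
H2-Ob: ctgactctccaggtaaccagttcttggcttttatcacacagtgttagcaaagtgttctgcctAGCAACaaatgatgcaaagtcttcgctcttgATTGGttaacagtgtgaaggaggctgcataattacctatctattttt
In each, GCAAC stands upstream of ATTGG: it starts at -81 in H2-Aa, -91 in H2-Eb1 and -87 in H2-Ob, and ATTGG starts at -48, -59 and -57. These are matches of letters, not measured binding sites.

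Library totals ran from 15449444 to 38799033 counts, and the 7 genes had 17 to 1103 counts per library, Ciita the fewest (17 to 97). The shallowest was tumour replicate 4, in which 9.14% of genes had no count (1.4% at most elsewhere). The design gives 2 males and 2 females per group, but the tumour libraries all looked female: Xist reached 481 to 1395 CPM in each, and 4 Y-linked genes together had at most 1 count. Male-like libraries (Xist below 1 CPM, 14857 to 22766 Y-linked counts) were found among normal adult (replicates 1 and 2) and P14 mice (replicates 2 and 3) only. The fits below therefore have a counterpart restricted to libraries with Xist above 100 CPM (2 normal adult, 2 P14 and 4 tumour). P14 replicate 4 stood apart from the other P14 libraries in the class II chains, and in epithelial markers (summed 2502.5 CPM against 393 to 666).

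The class II chains were abundant enough to measure in normal adult stroma, about 10-fold lower at P14, and between these levels in tumours. H2-Ab1, the I-A beta chain, stood at 22.8, 29.3, 25.4 and 29.3 CPM in normal adult replicates 1 to 4. It stood at 1.87, 1.27, 2.04 and 5.44 CPM in the P14 libraries and at 17.8, 22.1, 15.4 and 13.1 CPM in the tumour libraries. The 3 groups did not overlap: every P14 library was below every tumour library, and every tumour library below every normal adult library. H2-Ab1 fell 10.0-fold at P14 (log2 fold change -3.32 ± 0.39 SE, adjusted p = 0.000218 by edgeR's quasi-likelihood test, used for all fold changes). Tumour against normal adult gave -0.64 ± 0.35 (95% interval -1.41 to 0.12, adjusted p = 0.231), which did not pass, and tumour exceeded P14 6.42-fold (2.68 ± 0.38, adjusted p = 0.000264).

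H2-Aa, the I-A alpha chain, stood at 30.1, 38.1, 29.8 and 35.5 CPM in normal adult, at 1.90, 1.11, 1.66 and 8.01 CPM in P14 and at 12.1, 17.9, 10.1 and 3.72 CPM in tumour libraries. Tumour libraries were all below normal adult, while P14 replicate 4 was above tumour replicate 4, so those groups overlapped. H2-Aa fell 10.5-fold at P14 (-3.39 ± 0.60, adjusted p = 0.00171). Tumour against normal adult gave -1.60 ± 0.56 (95% interval -2.81 to -0.38, adjusted p = 0.0655), which did not pass here but passed with DESeq2 (adjusted p = 0.0185), limma voom (0.013) and a fit of those 2 groups alone (0.0215), and without tumour replicate 2 (0.0464). Tumour exceeded P14 3.46-fold (1.79 ± 0.57, adjusted p = 0.0272). That call was lost without P14 replicate 1, 2 or 3 or tumour replicate 1 or 2 (adjusted p from 0.052 to 0.0787).

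H2-Eb1, the I-E beta chain, stood at 27.9, 31.5, 27.7 and 32.2 CPM in normal adult, at 1.79, 1.58, 1.83 and 5.97 CPM in P14 and at 15.1, 14.5, 8.08 and 5.58 CPM in tumour libraries. Again no tumour or P14 library reached a normal adult one, and P14 replicate 4 lay just above tumour replicate 4. H2-Eb1 fell 10.6-fold at P14 (-3.41 ± 0.45, adjusted p = 0.000411) and was 3.87-fold higher in tumour than P14 (1.95 ± 0.43, adjusted p = 0.00421). It was the 1 member that passed against normal adult in tumours, 2.75-fold lower (-1.46 ± 0.42, adjusted p = 0.0296). That call was lost without any of the 4 normal adult libraries, tumour replicate 3 or tumour replicate 4 (adjusted p from 0.0548 to 0.0684, log2 fold change -1.34 to -1.50 for the first 5 and -1.25 for the last).

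Cd74 (ENSMUSG00000024610, chr18:60803848-60812652, plus strand) encodes the invariant chain, which also serves as a receptor for the cytokine MIF. It stood at 35.1, 40.7, 31.3 and 35.5 CPM in normal adult, at 2.20, 1.02, 2.00 and 8.23 CPM in P14 and at 26.1, 30.8, 40.7 and 5.00 CPM in tumour libraries. Tumour replicate 3 was level with the highest normal adult library, and tumour replicate 4 fell below P14 replicate 4. Cd74 fell 10.5-fold at P14 (-3.40 ± 0.66, adjusted p = 0.00258) and was 7.60-fold higher in tumour than P14 (2.93 ± 0.65, adjusted p = 0.00401). Tumour against normal adult gave -0.47 ± 0.59 (95% interval -1.76 to 0.82, adjusted p = 0.623), or -0.13 without tumour replicate 4. Without P14 replicate 4 the P14 falls became -3.95, -4.41, -4.10 and -4.35 for H2-Ab1, H2-Aa, H2-Eb1 and Cd74, and the tumour excesses over P14 became 3.30, 2.82, 2.64 and 3.87, all still called. The 4 genes together summed to 125.5 ± 12.4 CPM (SD) in normal adult, 12.0 ± 10.5 in P14 and 64.5 ± 25.5 in tumour libraries.

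**Figure D1:**
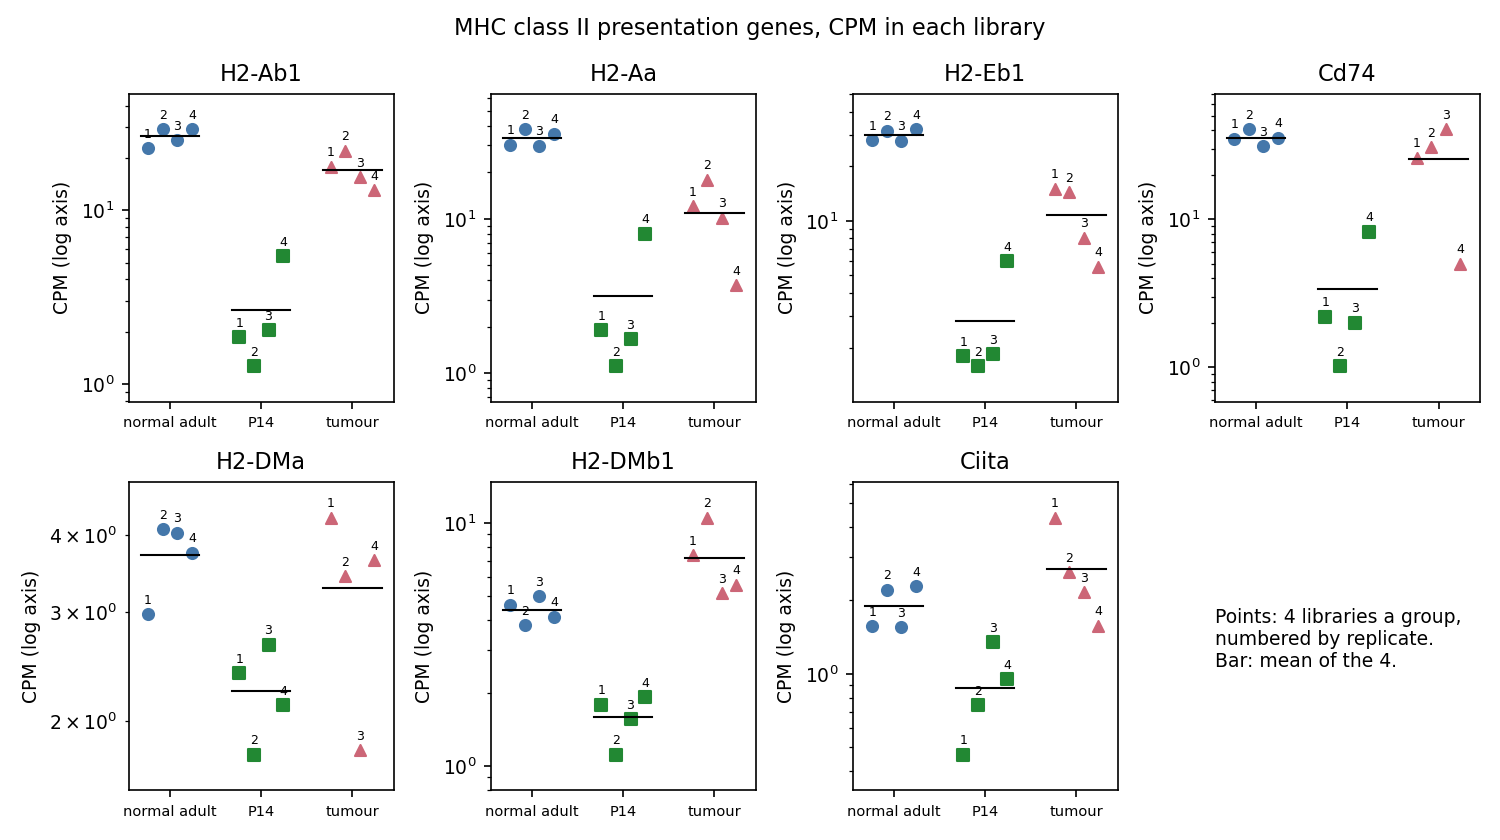
CPM (log axis) of the 7 class II presentation genes in each library, with 4 points per group numbered by replicate and a bar at the group mean. The chains and Cd74 sit near 30 CPM in normal adult and mostly near 2 CPM in P14, with P14 replicate 4 above the other P14 libraries, whereas H2-DMb1 is highest in tumour libraries.

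The peptide-exchange chains showed smaller differences. H2-DMa, the H2-DM alpha chain, stood at 2.98, 4.09, 4.04 and 3.75 CPM in normal adult, at 2.39, 1.76, 2.66 and 2.12 CPM in P14 and at 4.27, 3.44, 1.80 and 3.65 CPM in tumour libraries. Its P14 libraries were below all normal adult ones, and tumour libraries overlapped both. None of its comparisons passed: -0.73 ± 0.28 at P14 against normal adult (95% interval -1.34 to -0.12, adjusted p = 0.0648), -0.18 ± 0.28 for tumour against normal adult (-0.78 to 0.43, adjusted p = 0.703) and 0.56 ± 0.28 for tumour against P14 (-0.06 to 1.17, adjusted p = 0.139). The first passed with DESeq2 (adjusted p = 0.0243) and with those 2 groups alone (0.0136), and the last without tumour replicate 3 (0.0261).

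H2-DMb1, the H2-DM beta chain, stood at 4.61, 3.80, 5.01 and 4.12 CPM in normal adult, at 1.79, 1.11, 1.56 and 1.93 CPM in P14 and at 7.38, 10.6, 5.16 and 5.58 CPM in tumour libraries. Its groups did not overlap, and its order differed from that of the chains: every tumour library was above every normal adult library. It fell 2.74-fold at P14 (-1.46 ± 0.28, adjusted p = 0.00233) and was 4.49-fold higher in tumour than P14 (2.17 ± 0.28, adjusted p = 0.000147). Tumour against normal adult gave 0.71 ± 0.27 (95% interval 0.13 to 1.29, adjusted p = 0.0838), which did not pass, though it did with DESeq2 (adjusted p = 0.0484) and without tumour replicate 3 (0.0457).

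Ciita (ENSMUSG00000022504, chr16:10480059-10528418, plus strand), the transactivator of all the others, was the scarcest. It stood at 1.57, 2.21, 1.55 and 2.28 CPM in normal adult, at 0.467, 0.743, 1.35 and 0.949 CPM in P14 and at 4.36, 2.61, 2.15 and 1.57 CPM in tumour libraries. Each P14 library was below each library of the other groups, and tumour libraries overlapped normal adult ones. Ciita fell 2.17-fold at P14 (-1.12 ± 0.39, adjusted p = 0.0455), a call lost without any of 7 of the 8 single libraries, all but P14 replicate 3 (adjusted p from 0.0596 to 0.124). It was 3.07-fold higher in tumour than P14 (1.62 ± 0.39, adjusted p = 0.00705), and tumour against normal adult gave 0.50 ± 0.38 (95% interval -0.33 to 1.32, adjusted p = 0.397).

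**Figure D2:**
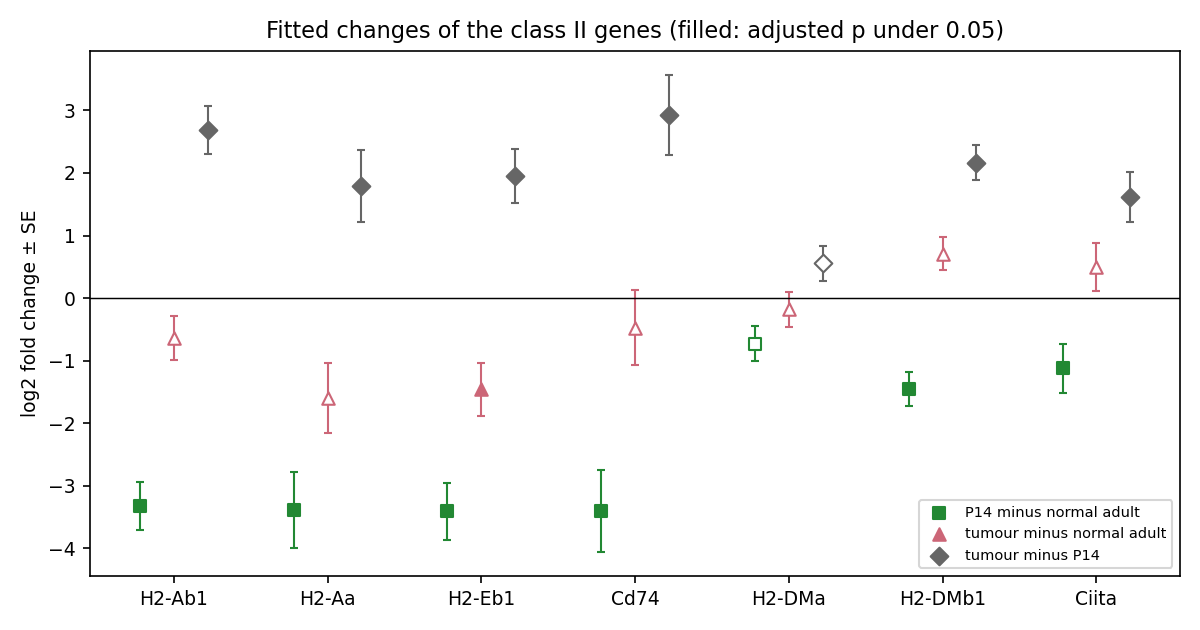
Log2 fold change of each member with its SE in the 3 comparisons, with filled symbols for adjusted p under 0.05. The 3 chains and Cd74 lie between -3.32 and -3.41 at P14, the H2-DM chains and Ciita between -0.73 and -1.46, and H2-Eb1 is the only filled tumour-against-normal symbol.

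At P14 against normal adult, 6 of the 7 members fell and H2-DMa did not pass, beside 16.0% of all 18727 tested genes that were called lower. All 7 had every P14 library below every normal adult library, beside 21.7% of all genes. Their median log2 fold change was -3.32, beside -0.0019 over all genes. For tumour against normal adult, 1 member fell and 6 did not pass, beside 8.29% of all genes called lower, and the median was -0.47, beside 0.00075. H2-Ab1, H2-Aa and H2-Eb1 had all tumour libraries below normal adult, beside 11.0% of all genes, and H2-DMb1 had all above, likewise beside 11.0%. For tumour against P14, 6 members were higher and H2-DMa did not pass, beside 19.7% of genes called higher, and H2-Ab1, H2-DMb1 and Ciita had all tumour libraries above, beside 14.8%. The median was 1.95, beside 0.048. The comparisons share libraries, so their counts are not independent of each other.

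Among libraries with Xist above 100 CPM alone, edgeR called 0 members at P14 against normal adult (adjusted p from 0.0661 to 0.288 for the 6, log2 fold changes from -1.30 to -2.95), with 5 of 7 at an unadjusted p under 0.05, and 23 genes of 18862 in all. No other tool was run on these libraries. The 2 P14 libraries kept were replicates 1 and 4, with chain sums of 7.75 and 27.7 CPM. Replicate 4, which stood apart from the other P14 libraries, thus weighs on the P14 values here, besides the smaller number of libraries. H2-Eb1 in tumour against normal adult was then -1.47 (adjusted p = 0.155). For tumour against P14, H2-Ab1 (2.22, adjusted p = 0.0181) and H2-DMb1 (1.95, adjusted p = 0.0214) were still called and the other 4 were not (adjusted p from 0.0774 to 0.3).

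The members were also scaled by length, as RPKM (CPM divided by the merged length of all annotated exons in kilobases). That length was 3798 bases for H2-Aa, 2568 for H2-Ab1 and 1681 for H2-DMb1. It can exceed the length of the transcripts present, so the order of the genes depends on it. By mean CPM, H2-Aa was above H2-Ab1 in normal adult (33.4 against 26.7) and above H2-DMb1 in tumours (11.0 against 7.17), unlike the RPKM orders below. In normal adult stroma the order was Cd74 (21.2 ± 2.30 RPKM, SD), H2-Eb1 (15.3 ± 1.21), H2-Ab1 (10.4 ± 1.24), H2-Aa (8.78 ± 1.07), H2-DMb1 (2.61 ± 0.318), H2-DMa (1.08 ± 0.149) and Ciita (0.200 ± 0.0418). H2-Ab1 and H2-Aa were the only neighbours whose libraries overlapped. In P14 libraries the first 6 overlapped their neighbours, from Cd74 at 2.00 ± 1.96 to H2-DMa at 0.648 ± 0.111 RPKM, and Ciita was below them at 0.0919 ± 0.0389. In tumours the order was Cd74 (15.3 ± 8.96), H2-Ab1 (6.66 ± 1.49), H2-Eb1 (5.55 ± 2.42), H2-DMb1 (4.26 ± 1.46), H2-Aa (2.89 ± 1.54), H2-DMa (0.954 ± 0.307) and Ciita (0.281 ± 0.126 RPKM). Every tumour neighbour overlapped the next except that all Ciita values were below all H2-DMa values. By its mean RPKM, H2-Aa thus ranked below H2-DMb1 in P14 and tumour and above it in normal adult libraries, though these neighbours overlapped in the first 2 groups.

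The make-up of the pathway therefore differed between groups, a pattern chosen after the values were seen and given without a test. H2-DMb1 RPKM was 19.8% to 30.9% of H2-Ab1 RPKM in normal adult and 51.1% to 73.2% in tumour libraries. In P14 libraries it was 146%, 134% and 117% in replicates 1 to 3 and 54.1% in replicate 4. H2-Aa was 79.3% to 89.3% of H2-Ab1 in normal adult libraries. In tumours it was 45.9%, 54.9%, 44.4% and 19.2% for replicates 1 to 4, all below normal adult, and in P14 libraries it ran from 55.0% to 99.5%. Cd74 per H2-Ab1 was 1.85 to 2.36 in normal adult, 1.23 to 2.31 in P14, and 2.24, 2.13, 4.03 and 0.585 in the tumour libraries, so tumour replicates 3 and 4 departed in opposite directions. H2-Ab1 per Ciita was 47.6 to 60.8 in normal adult, 5.62 to 21.3 in P14 and 15.2 to 31.3 in tumour libraries. Ratios over the few P14 counts of H2-Ab1 (41 to 195) carry a wide counting error. The level of each ratio also depends on the exon lengths used, which are the same in every library.

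**Figure D3:**
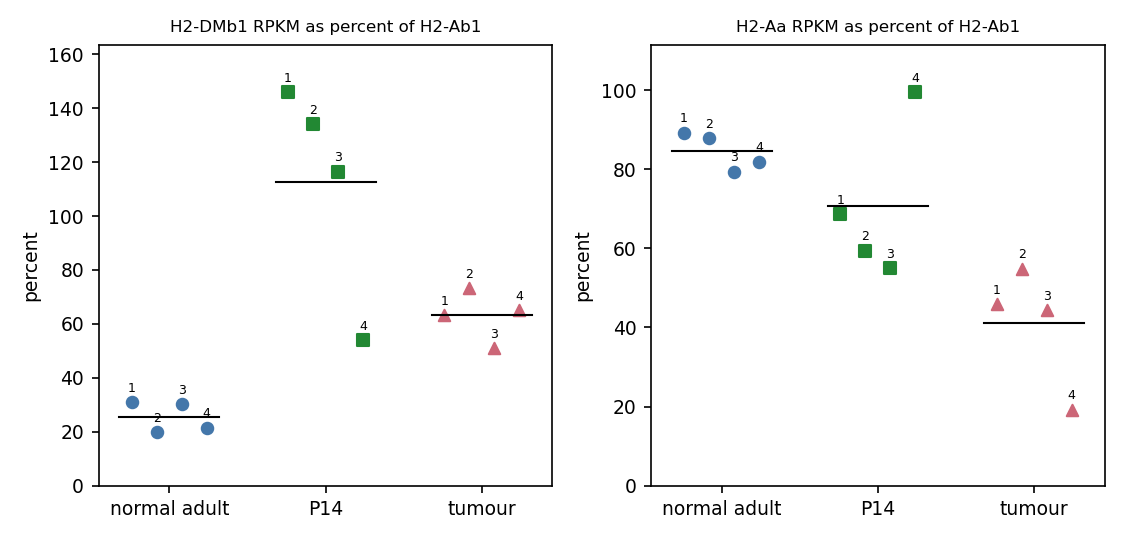
H2-DMb1 and H2-Aa RPKM as percent of H2-Ab1 RPKM in each library, numbered by replicate, with a bar at the group mean. H2-DMb1 is 19.8% to 30.9% of H2-Ab1 in normal adult and higher in every P14 and tumour library, while H2-Aa is lower relative to H2-Ab1 in all 4 tumour libraries than in any normal adult library.

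After group means were removed, H2-Aa and H2-Eb1 followed the mean of the other members most closely over the 12 libraries (r = 0.951 and 0.95 of log2 CPM), then H2-Ab1 (0.892), Cd74 (0.784), H2-DMb1 (0.621), Ciita (0.458) and H2-DMa (0.0898). These are descriptions over libraries that share depth and scaling, and P14 replicate 4 and tumour replicate 4 weigh on them. The chain genes thus varied together within groups, and H2-DMa did not follow them.

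Because the sort removed CD45+ cells, the markers of cells that carry class II were counted in the same libraries. In bulk samples, fewer cells of a type and less RNA per cell cannot be told apart. Macrophage markers, all 14 of them listed, summed to 189 to 253 CPM in normal adult, 32.5 to 50.6 in P14 and 21.9 to 126 in tumour libraries. At P14, 11 of the 14 fell, beside 16.0% of all genes called lower, and in tumours 8 fell against normal adult, beside 8.29%. Mrc1, the mannose receptor, had the smallest p of them at P14. It fell by 2.68 at P14 (adjusted p = 0.000136) and by 2.08 in tumours (adjusted p = 0.000489) on the log2 scale. Not all 14 macrophage markers went that way. At P14 Cd68 (0.71 ± 0.27, adjusted p = 0.0611) and Fcer1g (0.24 ± 0.46, adjusted p = 0.732) had positive values that did not pass. In tumours Tyrobp did (0.27 ± 0.84, adjusted p = 0.857). Tumour replicates 1 to 4 had macrophage sums of 37.6, 126, 21.9 and 63.3 CPM, with chain sums of 71.1, 85.2, 74.4 and 27.4 CPM. Replicate 2 was thus the highest in both, and Cd74 alone was 40.7 CPM of the chain sum in replicate 3. P14 replicates 1 to 3 had macrophage sums of 32.5 to 40.1 with chain sums of 4.98 to 7.75 CPM, and P14 replicate 4 had 50.6 with 27.7 CPM. Ptprc, which encodes CD45, was at 33.5 CPM in tumour replicate 2 and 2.33 to 3.42 in the other tumour libraries, with chain sums of 85.2 and 27.4 to 74.4 CPM. Fcgr1, Itgam and Cx3cr1 were each at 0 in 1 tumour library.

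Of 8 dendritic cell markers, 6 were listed and summed to 16.7 to 22.3 CPM in normal adult, 19.6 to 24.3 in P14 and 8.86 to 18.3 in tumour libraries. At P14, 1 of the 6 rose and 2 fell, beside 14.9% of all genes called higher and 16.0% lower. Zbtb46, a dendritic cell transcription factor also expressed by endothelium, made up much of the sum and rose (0.54 ± 0.19, adjusted p = 0.0495). Batf3, a factor of cross-presenting dendritic cells, did not pass (1.31 ± 0.56, adjusted p = 0.0963). Itgax, which encodes CD11c, fell (-2.31 ± 0.71, adjusted p = 0.0257). Cd209a, a lectin of monocyte-derived dendritic cells, was at 0.664 to 1.36 CPM in normal adult and at 0 in 1 P14 and 3 tumour libraries, and fell in both groups (adjusted p = 0.000982 and 0.00128). Of 8 B and plasma cell markers, 5 were listed, and they summed to 208 to 1184 CPM in normal adult, 0.402 to 23.8 in P14 and 17.4 to 840 in tumour libraries, mostly Igha and Jchain of plasma cells. Ms4a1, which encodes CD20, was at most 0.900 CPM in any library. The 3 listed T and innate lymphoid markers summed to 14.8 to 35.3, 3.84 to 8.71 and 6.30 to 24.6 CPM. Flt3, Xcr1, Cd79a, Pax5 and the Cd3 genes were not analysed here.

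Epithelial markers were lower at P14, as the chains were. All 13 fell at P14, from a sum of 5823 to 12394 CPM to 393 to 2502.5 CPM, beside 16.0% of all genes called lower. In tumours 4 of 13 fell, beside 8.29% of all genes, and the sum was 1430 to 5084 CPM. Tumour replicates 1 to 4 had epithelial sums of 4160, 1430, 5084 and 2886.5 CPM, with chain sums of 71.1, 85.2, 74.4 and 27.4 CPM. Epcam itself was at 704 to 1589 CPM in normal adult libraries although EPCAM+ cells were gated out. Endothelial markers summed to 226 to 318, 119 to 310 and 35.3 to 78.9 CPM in normal adult, P14 and tumour. In tumours 4 of 8 fell, beside 8.29% of all genes. Tek, the angiopoietin receptor, made up much of the sum, at 107 of 137 CPM in P14 replicate 1 and 96.0 of 119 in P14 replicate 2. Tek did not pass at P14 (-0.78 ± 0.35, adjusted p = 0.11) and fell by 3.07 in tumours on the log2 scale (adjusted p = 0.000274). Among the 4 that did not pass in tumours was Tie1 (-0.13 ± 0.63, adjusted p = 0.913). The 7 fibroblast markers, which include the collagens that mark the sorted stroma, summed to 29168 to 37202, 72132 to 95061 and 11075 to 31835 CPM. The sums are mostly collagen: Col1a1, Col1a2 and Col3a1 rose at P14 (1.90 ± 0.34, 1.88 ± 0.20 and 1.69 ± 0.30), and the other 4, Pdgfra, Dcn, Lum and Dpt, did not pass (-0.14, -0.21, 0.69 and -0.58, adjusted p from 0.252 to 0.726). The part of these cell types in the class II results was not tested.

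**Figure D4:**
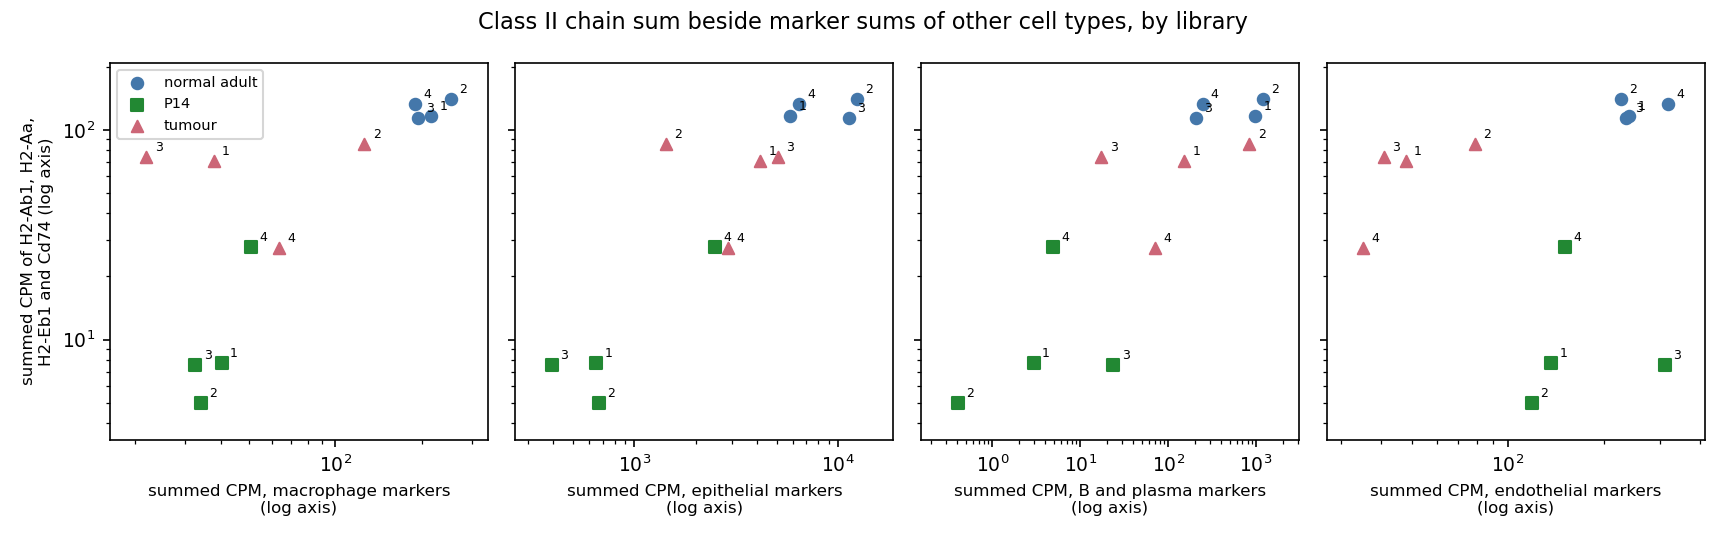
Summed CPM of H2-Ab1, H2-Aa, H2-Eb1 and Cd74 against summed CPM of macrophage, epithelial, B and plasma, and endothelial markers, 1 point per library, numbered by replicate, all axes log. P14 replicates 1 to 3 are low in chains, macrophage and epithelial markers together. Tumour replicates 1 and 3 have macrophage sums of 37.6 and 21.9 CPM with chain sums of 71.1 and 74.4 CPM, and tumour replicate 2 is the highest tumour library in both sums.

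The chain sum was set against the summed markers of the 4 leukocyte lists (macrophage, dendritic, B and plasma, T and innate lymphoid), per library. In every normal adult library the B and plasma markers, mostly Igha and Jchain, were the largest of the 4 sums. They were at 208 to 1184 CPM there and at 0.402 to 23.8 CPM in P14. The ratio therefore depends largely on plasma cell transcripts and cannot give the chains per cell that carries class II. Per 100 CPM of markers it was 9.37 to 28.02 CPM in normal adult, 8.29 to 33.0 in P14 and 8.59 to 121 in tumour libraries. Mean log2 ratios were compared by exact permutation of the 8 libraries, two-sided, with 70 assignments. The differences were -0.31 for P14 against normal adult (exact p = 0.829, adjusted over the 3 comparisons 0.829), 0.79 for tumour against normal adult (p = 0.457, adjusted 0.686) and 1.10 for tumour against P14 (p = 0.343, adjusted 0.686). The smallest p this design allows is 0.0286. These differences rest on single libraries: with 1 left out they ran from -0.76 (without P14 replicate 4) to -0.036 (without normal adult replicate 4), from 0.078 (without tumour replicate 3) to 1.35 (without tumour replicate 2) and from 0.39 to 1.66 (without the same tumour libraries), with exact p from 0.114 to 0.943. Against macrophage markers alone the exact permutation test gave -1.27 (p = 0.0571, adjusted 0.0857), 0.99 (0.343, adjusted 0.343) and 2.26 (0.0571, adjusted 0.0857), and against B and plasma markers alone 3.45 (0.0857, adjusted 0.257), 1.06 (0.629, adjusted 0.629) and -2.38 (0.229, adjusted 0.343). The sign at P14 thus differed with the markers used. Macrophage and dendritic markers together gave exact permutation values of -1.80 (p = 0.0286, the smallest possible, adjusted 0.0857), 0.74 (0.343, adjusted 0.343) and 2.54 (0.0571, adjusted 0.0857). Epithelial markers gave exact permutation values of -0.32 (0.486, adjusted 0.629), 0.40 (0.629, adjusted 0.629) and 0.73 (0.343, adjusted 0.629). None of these differences passed at 0.05 after adjustment. A lone comparison at the smallest possible p adjusts to 0.0857, so it could not pass even where the groups are fully separated. With macrophage and dendritic markers, every P14 library (9.09 to 39.4 per 100 CPM) was below every normal adult library (49.9 to 62.5). The lack of a pass therefore does not show that the ratios are alike.

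The rest of the pathway was read from lists of genes by role. Of other class II chains, H2-DMb2 and H2-Ob were tested, and H2-Oa, H2-Eb2 and H2-Ea were not analysed here. H2-Ob, the beta chain of the H2-O dimer that inhibits H2-DM and is typical of B cells, was at 0.784 to 1.51 CPM in normal adult, 0 to 0.335 in P14 and 0 to 0.286 in tumour libraries. It fell at P14 (-3.31 ± 0.92, adjusted p = 0.0169) and in tumours (-2.85 ± 0.93, adjusted p = 0.0499). The first call was lost without P14 replicate 1 or 3 (adjusted p = 0.0579 and 0.0514) and the value was -5.00 without P14 replicate 4, and the second was lost without any of 7 single libraries, all but tumour replicate 2 (adjusted p from 0.0642 to 0.114). H2-DMb2 was at 0.361 to 0.852, 0.0275 to 0.251 and 0 to 0.143 CPM. It fell at P14 (-2.51 ± 0.65, adjusted p = 0.0115, or -3.45 without P14 replicate 4) and in tumours (-2.72 ± 0.70, adjusted p = 0.0177, lost without normal adult replicate 4 at 0.0515). In tumours the near-identical H2-DMb1 was at 0.71 ± 0.27, as given above.

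Of 7 processing enzymes, 1 rose, 2 fell and 4 did not pass at P14, beside 14.9% of all genes called higher and 16.0% lower, and 2 fell and 5 did not pass in tumours against normal adult (8.29% lower). For tumour against P14, where 19.7% of all genes were called higher and 17.3% lower, 2 enzymes were higher and 1 lower. Ctss, cathepsin S, which trims Cd74 in antigen-presenting cells, was at 104, 230, 181 and 106 CPM in normal adult libraries, at 11.2, 10.8, 7.40 and 31.8 CPM in P14 and at 45.5, 29.7, 43.6 and 36.2 CPM in tumour libraries. As with the chains, P14 replicate 4 was the highest of its group, here within the tumour range. Ctss fell at P14 (-3.34 ± 0.44, adjusted p = 0.000403, or -3.99 without P14 replicate 4) and in tumours (-2.00 ± 0.42, adjusted p = 0.00601). Ctsl, cathepsin L, which trims Cd74 in thymic epithelium, was at 608 ± 90.1, 697 ± 99.8 and 475 ± 233 CPM (SD) in normal adult, P14 and tumour and did not pass in either comparison with normal adult (adjusted p = 0.621 and 0.39). Ctsh, cathepsin H, fell at P14 by 0.67 (adjusted p = 0.00981). Ifi30, the lysosomal thiol reductase, fell in tumours by 0.74 (adjusted p = 0.0197), lost without normal adult replicate 2 or 3 (adjusted p = 0.059 and 0.0612).

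Of 8 tested genes of class II turnover and costimulation, 1 rose and 3 fell at P14, and 1 rose and 3 fell in tumours. For tumour against P14, 2 were higher and 2 lower, counts near the shares over all genes (19.7% higher and 17.3% lower). The shares over all genes were 14.9% higher and 16.0% lower at P14, and 10.6% and 8.29% in tumours, so 1 of 8 higher is near the background. Cd83, which slows class II turnover at the cell surface, fell from 25.4 to 35.7 CPM in normal adult to 10.9 to 16.7 in P14 (-1.16 ± 0.29, adjusted p = 0.00972) and to 1.75 to 4.83 in tumour libraries (-3.13 ± 0.32, adjusted p = 8.27e-05). March1 and March8, ligases that tag class II for degradation, did not pass in any comparison. Cd80, a ligand of CD28, was at 0.477 to 1.66 CPM in normal adult and 0.110 to 0.311 in P14 (-2.09 ± 0.56, adjusted p = 0.0132), and at 1.26, 4.55, 3.37 and 5.08 CPM in tumour libraries (1.80 ± 0.51, adjusted p = 0.027). The tumour call was lost without normal adult replicate 3 or 4 or tumour replicate 4 (adjusted p from 0.0571 to 0.0841). Cd86, the other CD28 ligand, was at 2.56 to 3.49 CPM in normal adult and 0 to 1.22 in tumour libraries, the opposite direction (-2.69 ± 0.80, adjusted p = 0.0344). That call was lost without any normal adult library or tumour replicate 1 or 3 (adjusted p from 0.0604 to 0.0781), and the value was -4.002 without tumour replicate 2 (adjusted p = 0.00632). Cd274, which encodes PD-L1, was at 7.30 to 7.87 CPM in normal adult, 1.61 to 5.15 in P14 and 8.19 to 12.3 in tumour libraries, lower at P14 (-1.35 ± 0.31, adjusted p = 0.00626) and not passed in tumours (0.47 ± 0.30, adjusted p = 0.309).

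Of 7 genes for factors that hold Ciita at class II promoters, 1 rose and 1 fell at P14 and in tumours alike, counts near those shares over all genes. Creb1 rose at P14 (0.69 ± 0.12, adjusted p = 0.00182). Rfxank fell at P14 (-0.51 ± 0.16, adjusted p = 0.0299) and in tumours (-0.61 ± 0.16, adjusted p = 0.0212), and Rfx5, its partner at the X box, rose in tumours (0.61 ± 0.18, adjusted p = 0.0355). These 3 Rfx calls did not hold under every single omission: Rfxank at P14 was lost without any P14 library or normal adult replicate 1, 2 or 3 (adjusted p from 0.0532 to 0.0908), Rfxank in tumours without normal adult replicate 2 (0.0616), and Rfx5 without any normal adult library or tumour replicate 1 or 3 (0.0529 to 0.0904). Nfya, Nfyb and Nfyc, subunits of the Y box factor, passed in no comparison.

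Of 12 genes listed upstream of Ciita, 2 rose, 1 fell and 9 did not pass at P14, beside 14.9% of all genes called higher and 16.0% lower. In tumours 1 rose, 2 fell and 9 did not pass, beside 10.6% and 8.29%. Irf1 rose at P14 (0.70 ± 0.23, adjusted p = 0.0334), a call lost without any of 6 single libraries (adjusted p from 0.051 to 0.0947). Ifngr1 encodes the ligand-binding chain of the interferon-gamma receptor. It was at 208 to 283 CPM in normal adult, 99.0 to 117 in P14 and 144 to 189 in tumour libraries, with no overlap between groups. It fell at P14 (-1.19 ± 0.14, adjusted p = 0.000209) and in tumours (-0.55 ± 0.14, adjusted p = 0.0152), and was higher in tumour than P14 (0.64 ± 0.14, adjusted p = 0.00324). H2-Ab1 had the same order. All P14 libraries were below normal adult in 21.7% of all genes. All tumour libraries were below normal adult in 11.0% and above P14 in 14.8%. The part of these upstream genes in the class II levels was not tested.

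Of 16 interferon-gamma target genes, 4 rose and 2 fell at P14, with a median log2 fold change of 0.56, and 7 rose and 9 did not pass in tumours, with a median of 0.89. Over all genes 14.9% were called higher and 16.0% lower at P14, and 10.6% higher in tumours. Leaving out each compared library in turn kept 2 of the 6 P14 calls and 6 of the 7 tumour calls. Nlrc5, the transactivator of MHC class I and the counterpart of Ciita, was at 4.23, 4.87, 8.44 and 10.4 CPM in normal adult libraries, at 2.42, 4.52, 11.7 and 3.71 CPM in P14 and at 64.4, 53.9, 66.7 and 41.9 CPM in tumour libraries. All tumour libraries stood above all others (3.02 ± 0.46 against normal adult, adjusted p = 0.000928), beside 0.50 ± 0.38 for Ciita. Psmb8, an immunoproteasome subunit, rose in tumours from 20.3 to 22.8 CPM to 28.1 to 76.0 CPM (1.23 ± 0.25, adjusted p = 0.00526). Cxcl9, a chemokine induced by interferon-gamma, was at 0.288 to 0.973 CPM in normal adult, 1.98 to 11.3 in P14 and 4.32 to 17.6 in tumour libraries. It rose at P14 (3.03 ± 0.68, adjusted p = 0.00556, or 2.05 without P14 replicate 3) and in tumours (4.09 ± 0.70, adjusted p = 0.00193). Cxcl10 rose at P14 (2.86 ± 0.33, adjusted p = 0.000196) and in tumours (1.42 ± 0.31, adjusted p = 0.00836). At P14 these chemokines were higher and the class II chains lower. The 2 targets that fell at P14 were Ido1 (-2.61 ± 0.81, adjusted p = 0.0282) and Psmb9 (-0.68 ± 0.24, adjusted p = 0.0476). Those calls were lost without any of 5 and any of 8 single libraries. Both genes were higher in tumour than P14 (4.18 and 1.73, adjusted p = 0.00197 and 0.000261). The part of interferon-gamma in the class II levels was not tested.

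**Figure D5:**
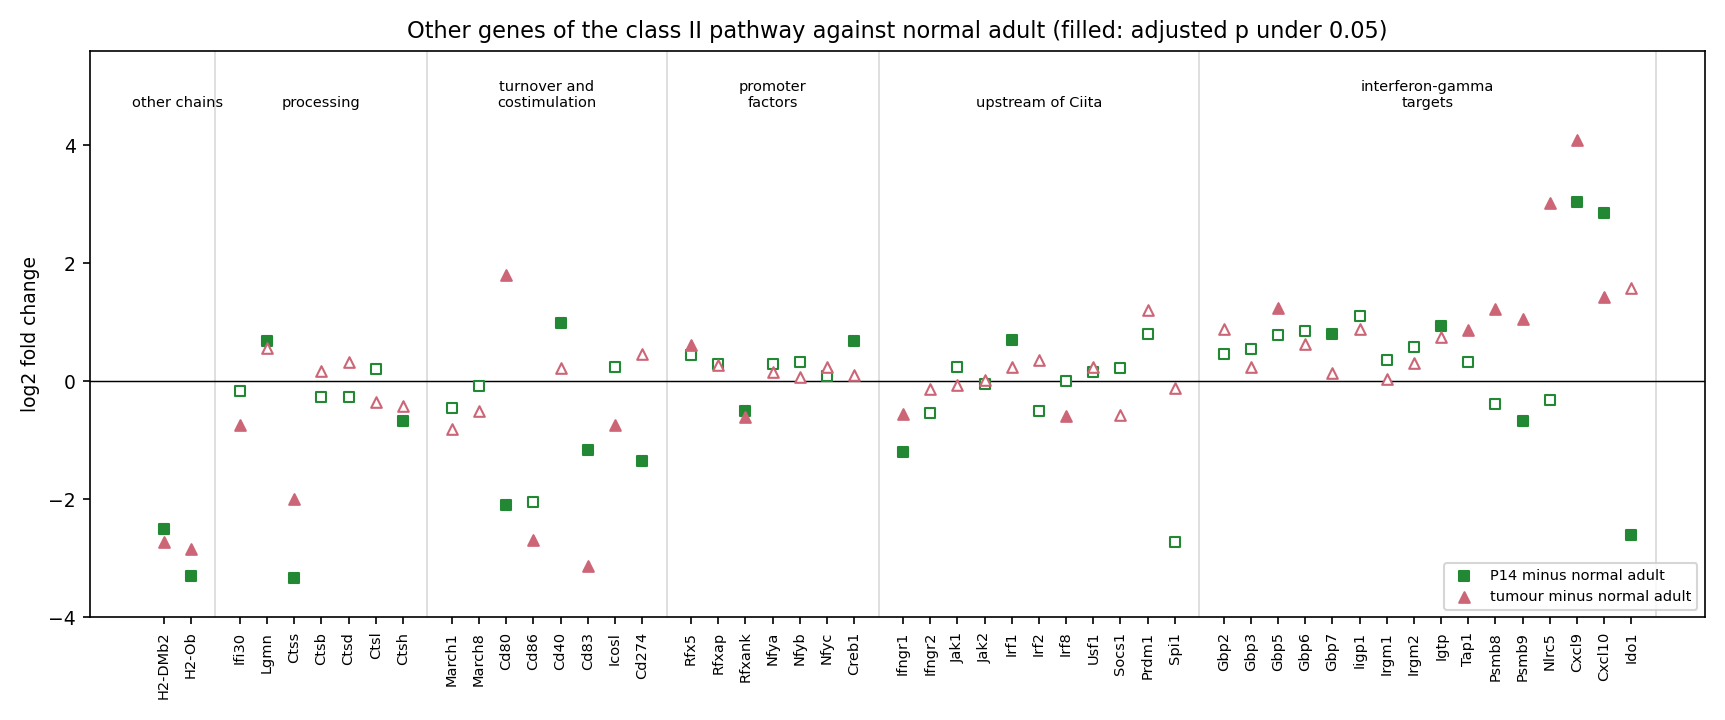
Log2 fold change against normal adult of the other reported genes of the pathway, grouped by role, for P14 (squares) and tumour (triangles), filled where adjusted p is under 0.05. H2-Ob, H2-DMb2 and Ctss are low in both groups, Cd80 and Nlrc5 part the 2 groups, and Cxcl9 and Cxcl10 are high in both.

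The genes most like the members were ranked by Pearson r of log2 CPM with the mean of the 7 over the 12 libraries, among 14097 candidates. The first 8 were Vav1 (0.964), Pcca (0.961), Pik3r5 (0.956), Snx20 (0.954), Oas1a (0.953), Oas1g (0.952), Hoxb13 (0.947) and Sprr2a2 (0.947). With group means removed, r was 0.656 to 0.761. Vav1, an exchange factor of blood cells, and Hoxb13, a homeobox gene of hindgut epithelium, thus stood beside each other in this ranking. The points share depth, scaling and the group differences, and r is a description.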

How the data were processed

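RNA-seq of 12 sorted stromal libraries (polyadenylated RNA, stranded kit, single reads of 75 bases, per the labels' protocols) was taken from the authors' single table, whose deposited values are raw counts with no scaling. STAR 2.4.2a, edgeR 3.28.0 and GRCm38 are named, without roles, per the submitters' processing notes. Not given in the sources used here are the counter, annotation, strand setting and treatment of multiply matching reads. Every listed gene had at least 12 counts in total, so scarcer genes were absent before analysis. Libraries are from separate mice per the labels. None was a copy of another (chi-square of counts divided by its degrees of freedom, 11.4 to 232 within groups). Counts are of reads without molecular identifiers.

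Symbols, positions and exon lengths came from GENCODE M21 (19012 of 19049 genes matched). In R 4.3.3, edgeR 4.0.16 fitted all 12 libraries (TMM factors, filterByExpr with minimum count 10 and total 15, 18727 genes kept and 322 removed, common biological coefficient of variation 0.333), and the quasi-likelihood test was adjusted over all tested genes (Benjamini-Hochberg, threshold 0.05). All 7 members passed the filter. SEs come from the fit. The fit and test were checked on simulated counts. Alternatives were DESeq2 1.42.0, limma 3.58.1 voom, other factors and filters, 2-group fits, a threshold of 0.01, a block on title numbers, an Xist subset and each library left out. The joint omission of P14 and tumour replicates 4, the epithelial ratio and the core GCAAC were added after seeing the data. Results that need items withheld for evaluation are not reported here. The members, lists and tests were chosen with earlier results of these data known. All members are named. From each list up to 4 called genes with the smallest p per comparison were eligible, other listed genes are named only with values, and marker genes named singly were chosen after their values were seen. Likeness used genes of at least 1 CPM without predicted, immunoglobulin, T cell receptor, Xist or Y-linked genes (log2 CPM with prior count 2).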

Additional observations from a re-analysis of the deposited data

Results flagged for a closer look

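P14 replicate 4 was flagged because it lay far from the other 3 P14 libraries in H2-Aa (8.01 CPM against 1.11 to 1.90), H2-Eb1 (5.97 against 1.58 to 1.83), Cd74 (8.23 against 1.02 to 2.20) and the sum of the 3 chains and Cd74 (27.7 against 4.98 to 7.75). Its gap exceeded Dixon's 95% critical value in these 4 of 24 groups of values looked at. Chance flags about 1 in 20 groups, and these 4 values come from 1 library and share genes, so they count as 1 event. The same library had the highest epithelial (2502.5 CPM against 393 to 666) and macrophage (50.6 against 32.5 to 40.1) marker sums of its group. Their part in the result was not tested.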

How the results depend on the processing

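Under the alternatives run, no called fold change of a member reversed. Of the member fold changes under an alternative, 333 stayed on their side of the threshold, 10 newly passed and 35 lost it. For tumour against normal adult, 1 member was called, against 3 with DESeq2, 2 with limma voom and 2 with those groups alone. The number was 2 without P14 and tumour replicates 4 together, 0 at an adjusted p under 0.01, 0 among libraries with Xist above 100 CPM, and 0 to 2 with 1 library left out. Over all genes this comparison had 3545 calls, against 4684 with DESeq2, 3430 with limma voom, 2569 with those groups alone and 3021 with the joint omission. At an unadjusted p under 0.05, edgeR had 3 of 7 over all libraries and 2 of 7 in the Xist subset. Among libraries with Xist above 100 CPM, the 6 members called became 0 at P14 against normal adult and 2 for tumour against P14. That subset had fewer libraries, and its P14 group was replicates 1 and 4, the second of which is flagged above. Groups share title numbers, and the main fit did not pair libraries by them. The deviations of libraries with 1 number correlated above 0.1 in 3 of 6 pairs, all 3 of them with title number 2 (r = 0.204, 0.319 and 0.208). So few pairs cannot settle whether the numbers pair libraries. With the title number as a replicate block, 5 members were called at P14 and 1 in tumours against normal adult, and 6 for tumour against P14. Ciita was the call lost at P14 (-1.36, adjusted p = 0.125). Genes called in all, in the same order, were 5789, 3545 and 6930, against 2953, 818 and 3740 with the block, 3135, 1550 and 4044 at an adjusted p under 0.01 and 23, 644 and 1999 in the Xist subset. Depth limits Ciita most, at 17 counts in its lowest library, and the P14 chain counts, from 33 upward. Of the calls near the threshold, H2-Eb1 in tumours was lost without any of 6 of the 8 compared libraries, and Ciita at P14 without any of 7. H2-Aa in tumours was not called in the main fit and passed without tumour replicate 2. Each omission also left fewer libraries, and at P14 fewer genes were called in all (4149 to 5393 against 5789).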
